A study of Mus musculus with 14 samples.

Results

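The genomic sites of RXRα and of p300 in undifferentiated mouse embryonic stem cells (mESCs) were set against each other, to ask which sites the 2 proteins share and what sets the shared sites apart. Both proteins carried a tag at their own gene in a line of E14 origin whose label calls it a triple reporter, while the culture notes name reporters for BRA (green) and SOX17 (red). RXRα carried HA and an FKBP12F36V degron and was precipitated with a mix of HA antibodies; p300 carried V5 and the biotin ligase miniTurboID and was precipitated with a V5 antibody. The RXRα mESC group and the p300 mESC group held 2 libraries each, and the 1 mESC input came from the p300 line. Cells grew on gelatin with serum and leukemia inhibitory factor (LIF), and protein contacts were fixed with disuccinimidyl glutarate before formaldehyde. RXRα and p300 were also profiled in gastruloids, aggregates of such cells kept for 120 h, with 2 libraries each and 1 input from the p300 line. The labels do not say whether the 2 libraries of a group were separate cultures, and no precipitation from untagged cells was analysed here, so tag, antibody and line cannot be told apart from the protein.

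A region was a stretch of merged peaks, joined by an overlap of 1 bp, with a peak in both libraries of a group, after peaks at input peaks had been left out. This gave 24698 RXRα regions and 31014 p300 regions in mESCs, together 55712 of the 132214 regions of the 6 precipitated groups of the series. An RXRα region that overlapped a p300 region by 1 bp or more is called a region with p300, and the converse holds for p300 regions with RXRα. Each library pools many cells and the 2 proteins were tagged in different lines, so an overlap places both at a site and not on 1 DNA molecule.

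RXRα is a nuclear receptor that binds DNA mostly as a dimer, with a retinoic acid receptor, a thyroid hormone or vitamin D receptor, a lipid sensor such as LXR or PPAR, or with itself. The dimers read pairs of a hexamer close to AGGTCA, and the number of bases between the hexamers favours one partner over another. p300 is a histone acetyltransferase without a DNA sequence of its own to read; transcription factors bring it to enhancers and promoters, and it is widely used as a mark of active enhancers. Ligand-bound nuclear receptors recruit p300 and related coactivators, and receptors without ligand can hold corepressors instead.

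The RXRα libraries kept 49661 and 28112 peaks and the p300 libraries 44506 and 35371. Of the RXRα peaks, 50.0% of library 1 and 88.5% of library 2 overlapped a peak of the other library, and of the p300 peaks 69.8% and 88.1% did. The median peak held 23 fragments at its summit in each RXRα library and 30 and 28 in the p300 libraries, so weak sites carry a large counting error. Of the 111 mESC input peaks, 86 and 79 were also peaks in the RXRα libraries and 71 and 64 in the p300 libraries before they were left out. All 8 mESC marker genes checked had regions of both proteins, 50 RXRα regions of which 28 were with p300, and 54 p300 regions. Of all 21883 protein-coding genes, 10806 had an RXRα region assigned within 100 kb and 10714 a p300 region. Over all these genes 42.0% of the RXRα regions were with p300. Markers of other cell types were not empty: p300 regions numbered 12 at 2 neural genes, 9 at 5 primitive endoderm genes, 7 at 3 trophoblast genes and 5 at 3 mesoderm genes, where T and Mixl1 had none. A region near a gene does not tell whether the gene is expressed.

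Promoters with an RXRα summit inside the 300 bases printed give a view of the DNA under these regions; no other genomic sequence was used here. The windows are those of RefSeq for GRCm38.p6, from 250 bases before to 50 after an annotated gene start, written on the strand of the gene. The capitals mark a direct repeat of the receptor hexamer in any of 4 spellings (AGGTCA or GGGTCA or AGTTCA or GGTTCA) or, in the last sequence, a single AGGTCA. The first is the window of Rarb, a retinoic acid receptor and a classical target of retinoic acid, at chr14:16575427-16575726 on the minus strand. Next come the windows with the strongest RXRα for 3 spacings: Srp54a, a signal recognition particle subunit, at chr12:55080246-55080545 on the plus strand (1 base between the hexamers), Prm2, a sperm protamine, at chr16:10792056-10792355 on the minus strand (0 bases), and 1810020O05Rik at chr6:87722698-87722997 on the minus strand (2 bases). The last is Pou5f1, which encodes OCT4, the factor at the core of pluripotency, at chr17:35505782-35506081 on the plus strand; its proximal promoter is a known target of nuclear receptors. Of these 5, only the 1810020O05Rik region was with p300. Besides Rarb and Pou5f1, only Rara and Zfp42 among the listed genes were looked up for an RXRα summit in their window. Both had one, with p300. The Rara AGGTCA lay 188 bp from the summit and the Zfp42 window held no match, and neither is printed. Further listed genes can have such a summit: the RXRα region of Nr4a2 lay 38 bp from its start, without p300.
Rarb: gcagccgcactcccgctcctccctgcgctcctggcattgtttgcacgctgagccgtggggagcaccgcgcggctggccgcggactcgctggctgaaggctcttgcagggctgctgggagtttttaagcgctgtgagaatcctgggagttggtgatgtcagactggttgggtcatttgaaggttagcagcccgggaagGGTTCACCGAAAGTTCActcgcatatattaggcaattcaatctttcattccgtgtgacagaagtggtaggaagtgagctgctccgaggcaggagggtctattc
Srp54a: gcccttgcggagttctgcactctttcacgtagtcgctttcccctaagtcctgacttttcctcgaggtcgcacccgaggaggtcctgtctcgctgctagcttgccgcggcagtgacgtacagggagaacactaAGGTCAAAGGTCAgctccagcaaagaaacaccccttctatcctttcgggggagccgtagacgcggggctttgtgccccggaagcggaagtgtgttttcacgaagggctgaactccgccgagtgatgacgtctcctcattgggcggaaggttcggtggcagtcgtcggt
Prm2: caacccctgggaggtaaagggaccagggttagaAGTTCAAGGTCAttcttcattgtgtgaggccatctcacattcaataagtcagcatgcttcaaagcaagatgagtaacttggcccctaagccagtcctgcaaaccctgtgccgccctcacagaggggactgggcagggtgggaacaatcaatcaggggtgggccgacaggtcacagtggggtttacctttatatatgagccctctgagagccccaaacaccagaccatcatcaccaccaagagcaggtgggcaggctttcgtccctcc
1810020O05Rik: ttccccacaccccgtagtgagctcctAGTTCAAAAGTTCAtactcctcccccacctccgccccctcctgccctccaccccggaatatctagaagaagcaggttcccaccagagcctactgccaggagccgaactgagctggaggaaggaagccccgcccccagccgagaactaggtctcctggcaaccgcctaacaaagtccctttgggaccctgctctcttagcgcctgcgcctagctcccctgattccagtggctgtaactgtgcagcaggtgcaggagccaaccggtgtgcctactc
Pou5f1: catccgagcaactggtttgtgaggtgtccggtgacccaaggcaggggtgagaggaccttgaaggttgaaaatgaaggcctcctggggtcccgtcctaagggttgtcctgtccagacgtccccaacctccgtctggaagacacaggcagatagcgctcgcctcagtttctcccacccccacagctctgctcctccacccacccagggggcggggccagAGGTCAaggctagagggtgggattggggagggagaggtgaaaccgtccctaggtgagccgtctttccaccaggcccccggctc

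The Rarb repeat had 5 bases between its hexamers, the spacing read by dimers of RXR and a retinoic acid receptor, and its centre lay 2 bp from the RXRα summit. RXRα reached a fold enrichment over the local background of 19.5 and 16.4 there in libraries 1 and 2, and p300 had a peak in only 1 of its mESC libraries. At 1810020O05Rik the RXRα folds were 22.9 and 17.1 and the repeat lay 4 bp from the summit. At Srp54a they were 16.4 and 12.3, with the repeat 87 bp from the summit, and at Prm2 8.98 and 8.97, with the repeat 6 bp away. The Pou5f1 promoter region was weaker, with folds of 4.22 and 4.56, and its AGGTCA lay 22 bp from the summit.

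RXRα and p300 shared a large part of their sites, but neither set contained the other. Of the RXRα regions, 10902 were with p300, which is 44.1% (exact binomial 95% interval 43.5% to 44.8%, counting error only). Another 2781 RXRα regions (11.3%) touched a p300 peak of 1 library only, and 10991 (44.5%) touched no p300 peak at all. Of the p300 regions, 10919 were with RXRα, which is 35.2% (34.7% to 35.7%), and 12924 (41.7%) touched no RXRα peak. Peaks of single libraries fell on a region of the other protein in 36.1% and 39.7% of cases for RXRα and in 29.7% and 32.6% for p300. The p300 share depended on the shorter RXRα list: when RXRα library 2 was left out, 57.4% of p300 regions were with RXRα. Shared regions were wider, with a median of 577 bp with p300 against 524 bp without for RXRα, and 596 bp with RXRα against 457 bp without for p300. A wider region meets the 1 bp rule more easily, so width is not independent of the class.

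RXRα sites with p300 were mostly far from gene starts, while RXRα sites at promoters mostly lacked p300. Of the RXRα regions with p300, 1074 of 10902 (9.85%) had their summit within 1 kb of the start of a protein-coding gene, against 3411 of 13796 (24.7%) without p300. The difference was −14.9 percentage points (95% interval −15.8 to −14.0) with an odds ratio whose interval ran from 0.309 to 0.358, and Fisher's exact test on regions gave an adjusted p of 2.29e-209. Regions are not replicates, so that p covers the spread among regions; the 4 pairs of single libraries gave −13.6 to −8.08 points. Without p300 library 2 the difference was −9.56 points.

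For p300 the order was the reverse, from a low base. Of the p300 regions with RXRα, 1062 of 10919 (9.73%) lay at a gene start, against 962 of 20095 (4.79%) without RXRα. The difference was 4.94 points (4.32 to 5.58), the odds ratio 2.14 and the adjusted p of Fisher's exact test 1.34e-60, and the 4 library pairs gave 4.91 to 6.57 points. It fell to 2.28 points when all lists were cut to equal length, to 2.37 when summits had to lie within 200 bp and to 2.47 at a stricter peak threshold.

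The shares moved with the distance to the nearest gene start, in opposite directions for the 2 proteins at the ends of the scale. The share of RXRα regions with p300 was 23.9% within 1 kb, 43.8% at 1 to 5 kb, 45.3% at 5 to 20 kb, 48.9% at 20 to 100 kb and 60.1% beyond 100 kb. The share of p300 regions with RXRα was 52.5% within 1 kb, 37.0%, 38.7% and 34.8% in the next 3 bins and 25.8% beyond 100 kb.

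**Figure D1:**
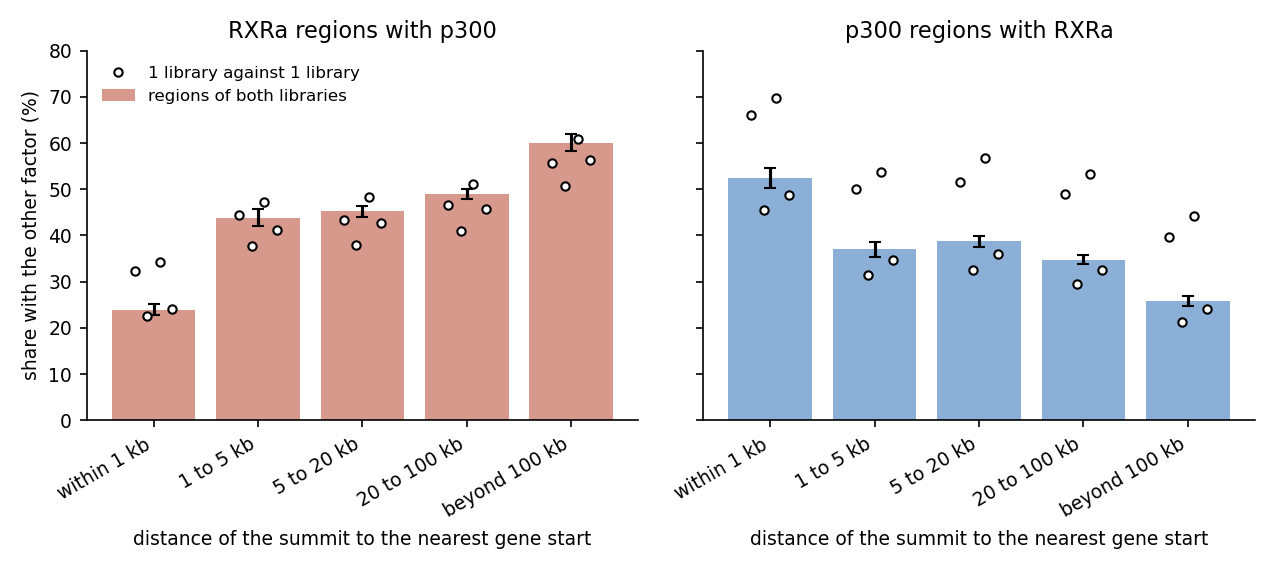
Share of RXRα regions with p300 (left) and of p300 regions with RXRα (right), in percent, by distance of the summit to the nearest gene start; bars are regions of both libraries with exact binomial 95% intervals, and circles are peaks of 1 library against peaks of 1 library. The RXRα bars run from 23.9% within 1 kb to 60.1% beyond 100 kb, and the p300 bars from 52.5% to 25.8%.

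Strong RXRα sites were more often with p300 than weak ones, at promoters and elsewhere. In 10 equal bins by the mean rank of fold in the 2 RXRα libraries, the share with p300 ran from 25.8% in the weakest bin to 78.0% in the strongest. Within 1 kb of a gene start it ran from 16.8% to 52.7%, and beyond 1 kb from 30.3% to 80.3%, so the promoter share stayed below the other in each of these bins. Among p300 regions the share with RXRα was 31.9% in the weakest bin, between 24.4% and 25.2% in the next 4, and 69.4% in the strongest. Promoters made up 21.8% of the weakest p300 bin and 1.52% of the strongest. Beyond 1 kb the share was 26.6% in the weakest bin and 22.4%, 22.3%, 22.96% and 24.1% in the next 4, so the weakest bin was higher there too.

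The same pattern appeared as a difference in fold inside each list. The median RXRα fold was 8.47 and 5.79 in libraries 1 and 2 at regions with p300, against 5.82 and 4.75 at regions without, a ratio of 1.34 ± 0.167 (SD, n = 2 libraries). The median p300 fold was 10.02 and 8.89 at regions with RXRα, against 7.36 and 6.43 without, a ratio of 1.37 ± 0.0147 (SD, n = 2 libraries). RXRα regions with p300 held a median of 48 and 30 fragments at the summit, against 29 and 22 for those without. Fragments were not solved for the peaks with the largest −log10 p values. The medians thus cover 10208 and 10664 of the 10902 regions with p300, and 13733 and 13784 of the 13796 without. Depth at the summit thus moved with the class, and its part in the shares was not tested. Inside the 10902 shared regions the folds of the 2 proteins ranked alike only in part, with a Spearman rho of 0.349 to 0.436 between an RXRα and a p300 library, beside 0.879 between the RXRα libraries and 0.967 between the p300 libraries. This rho is across regions that share libraries, and is given as a description.

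**Figure D2:**
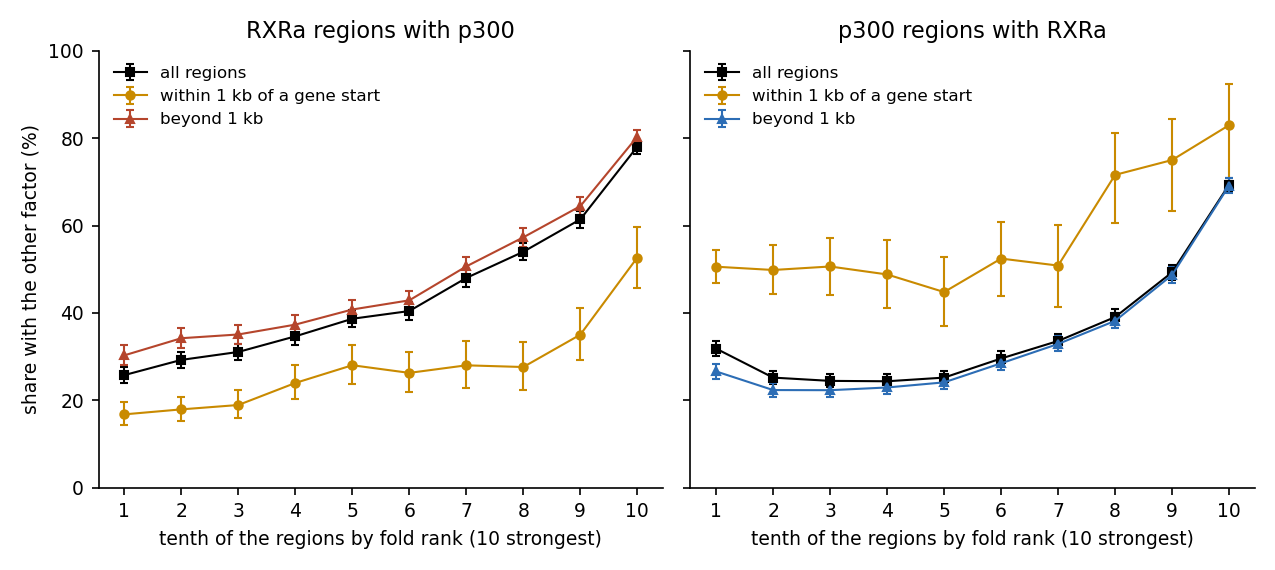
Share of RXRα regions with p300 (left) and of p300 regions with RXRα (right), in percent, in 10 equal bins by fold rank from weakest (1) to strongest (10), for all regions and for those within and beyond 1 kb of a gene start; bars are exact binomial 95% intervals. RXRα regions run from 25.8% to 78.0%, and p300 regions dip to 24.4% before they reach 69.4%.

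Where both proteins were found, their summits lay close together. The regions were paired because they overlap, and the p300 region with the nearest summit was taken where several did. Some closeness is thus built in, and the distance expected from overlap alone was not tested. The median distance between an RXRα and a p300 summit was 38, 40, 45 and 46 bp in the 4 pairs of libraries. In the same regions the 2 RXRα libraries differed by 28 bp and the 2 p300 libraries by 20 bp, which gives the spread of a summit between libraries of 1 protein. Near gene starts the proteins lay farther apart, at medians of 80 to 102 bp, against 45 bp between RXRα libraries and 41 bp between p300 libraries. Beyond 1 kb the medians were 36 to 43 bp, against 27 and 19 bp.

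**Figure D3:**
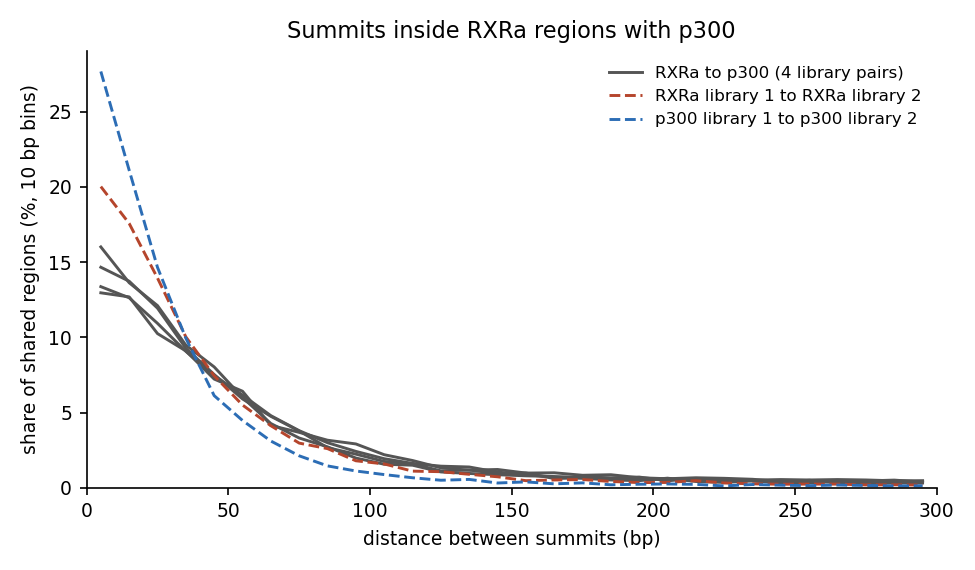
Distance in bp between the strongest summits inside the 10902 RXRα regions with p300, as the percentage of regions per 10 bp; solid lines are the 4 pairs of an RXRα and a p300 library and dashed lines the 2 libraries of 1 protein. All lines fall from their peak near 0 bp, and the dashed lines start higher.

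The strongest RXRα sites with p300 were distal. By mean fold rank, the leading region lay inside a gene 9643 bp from the start of Bbs1, a subunit of the complex that serves the primary cilium, on chromosome 19, with RXRα folds of 35.6 and 32.9. The next lay 10259 bp from Aurkc, a meiotic Aurora kinase (36.9 and 30.4), and 33697 bp from Adora2b, an adenosine receptor (34.6 and 33.4). Those near Slain2, a microtubule regulator, and Cxcr3, a chemokine receptor, had 34.6 and 32.6 and 33.1 and 30.3. Ranked by all 4 libraries, the Slain2 and Adora2b regions came first. At Slain2 (chr5:72902268-72902768) the p300 folds were 33.5 and 34.2 and the 2 summits coincided at 0 bp. At Adora2b (chr11:62214974-62215523) p300 had 34.3 and 33.0, with the summits 4 bp apart. Coch, Gm15319 and Gm46425 followed, with summits 13, 0 and 3 bp apart.

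The strongest RXRα regions without any p300 peak were weaker than these, and some sat at gene starts. The region 646 bp from the start of Fubp3, a single-strand DNA binding protein, had RXRα folds of 27.1 and 22.3. The one 13 bp from the start of Iqck had 23.1 and 20.6. Gm14496, Gm45871 and Cables1, which encodes a cyclin-dependent kinase partner, were the nearest genes of the other 3, at 8310 to 21367 bp, with folds of 20.0 to 29.2. The strongest p300 regions without any RXRα peak all lay at least 20928 bp from a gene start. They were nearest to Tas2r118, Asph, Wdfy4, Thpo and Gpm6a, with p300 folds of 25.3 to 29.9 in the 2 libraries.

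Of the genes with an RXRα region assigned within 100 kb, 54.9% had at least 1 with p300, and of those with a p300 region 55.5% had at least 1 with RXRα. Tns3, which encodes a focal adhesion protein, had the most shared regions, 12 of its 18 RXRα regions. Sik1, a salt-inducible kinase, followed with 10 of 13. Tbx3, a T-box factor of naive mESCs, Klf9, a Krüppel-like factor, and Sertad2 each had 9, of 17, 13 and 13, in a tie of 5 genes. At the other end, Ccdc167, Cux2, Ece1, Fry, Ipo5 and Rcsd1 had 6 RXRα regions each and none with p300. Ccdc167 and Ece1, the endothelin converting enzyme, also had no p300 region at all, while Ipo5, an importin, had 4 without RXRα.

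Genes of naive pluripotency were the list with the highest share of RXRα regions with p300. All 20 genes had an RXRα region and 19 had a shared one; of the 114 RXRα regions 73 were with p300 (64.0%), beside 42.0% over all protein-coding genes. Within 20 kb of the gene start the share was 74.5% of 51 regions. Esrrb, an orphan nuclear receptor of the naive network, had 6 of 10 RXRα regions with p300. Its strongest lay 80130 bp from the start, with RXRα folds of 17.5 and 16.3 and p300 folds of 20.0 and 19.7. Klf4, Klf5 and Prdm14, further factors of the naive network, each had 5 shared regions, of 9, 8 and 8 RXRα regions. At Klf4 the RXRα region 165 bp from the start was without p300 (RXRα folds 6.83 and 3.53), and so was its strongest, at 23629 bp (11.6 and 14.7). All 3 regions between 54923 and 68006 bp were with p300. Klf2 had a shared region 2840 bp from its start with RXRα folds of 21.2 and 18.1 and p300 folds of 28.9 and 29.5. Tet2, a DNA demethylating enzyme, had 6 of 8, and Lifr, the LIF receptor, 6 of 6.

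The core pluripotency genes had 34 of 63 RXRα regions with p300 (54.0%), and 15 of the 16 genes had a shared region. Sox2 had 5 of 9, the strongest 18612 bp from the start with RXRα folds of 22.8 and 16.3 and p300 folds of 16.4 and 16.3. Otx2, a factor of the exit from the naive state, had 5 of 8. At its start, p300 had folds of 30.0 and 30.7 and RXRα folds of 8.64 and 6.10. Sall4 had 3 of 10. Pou5f1 had 1 shared region of 5, at 1977 bp from its start, with RXRα folds of 9.31 and 8.04 and p300 folds of 17.3 and 16.9. The promoter region printed above had no p300 peak. Pou5f1, Klf2 and Klf4 were named after their values were seen, as were Nanog (2 of 4 regions shared), Fgf4 (4 of 4) and Tfcp2l1 (5 of 6).

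Feedback genes of BMP and Nodal signalling, the pathways that act on LIF-dependent self-renewal and on germ layer choice, came second with 36 of 58 RXRα regions with p300 (62.1%). Smad7 and Smad6, inhibitors of the pathway, had 5 of 8 and 4 of 8; Bmp4, a ligand, had 5 of 6, and Pmepa1, a feedback inhibitor of TGFβ signals, 3 of 7. Wnt pathway targets had 24 of 52 (46.2%), with Tcf7l1 (4 of 6), Znrf3 (3 of 5), Myc (5 of 7) and Axin2 (1 of 7) the genes with the most regions. Axin2, a feedback inhibitor of Wnt, had no shared region beyond that 1.

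Genes of the retinoid pathway itself had lower shares, nearer to or below that of all genes. The nuclear receptor genes had 18 of 51 RXRα regions with p300 (35.3%), with an interval of 22.4% to 49.9% that holds the 42.0% of all genes. Of the 22 genes with an RXRα region 11 had none with p300, as did 4869 of 10806 over all genes. Rxra, the gene of the precipitated protein, had 2 of 3 with p300; at 7093 bp from its start RXRα had folds of 6.53 and 6.47 and p300 had 18.2 and 16.2. Rarg had 2 of 4. Nr6a1, the receptor GCNF that represses Pou5f1 on differentiation, had 1 of 4, which was its strongest (RXRα 21.2 and 19.8, p300 11.7 and 9.63). Rara, the receptor that acts in most cells, had 3 of 4 with p300, and the 1 without was the strongest by RXRα fold (8.79 and 8.87). Rarb, Vdr and Nr2f1 were named after their values were seen: Vdr, the vitamin D receptor, had 0 of 3 and Nr2f1, the orphan receptor COUP-TF1, 0 of 4.

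The enzymes and carriers of retinoids had 5 of 23 RXRα regions with p300 (21.7%, 7.46% to 43.7%). Cyp26b1, which degrades retinoic acid, had 1 of 6, and that 1 was not its strongest. Dhrs3, which lowers retinaldehyde, had 0 of 3, with RXRα folds of 9.06 and 7.66 at 5251 bp inside the gene. Aldh1a3, which makes retinoic acid, had 1 of 2 beside 7 p300 regions, 6 of them without RXRα. Crabp1, which carries retinoic acid in the cell, had 1 of 2. Cyp26a1 and Stra6, the retinol channel, were named after their values were seen. Cyp26a1, a classical target of retinoic acid receptors, had 0 of 2, with RXRα folds of 15.9 and 12.8 at 1933 bp and 7.32 and 7.43 at 91841 bp, and no p300 peak at either. Stra6 had 0 of 1, at a p300 peak of 1 library.

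Lipid genes that LXR or PPAR dimers with RXR regulate had 25 of 48 RXRα regions with p300 (52.1%). Srebf1 and Abcg1 had 4 of 6 each, Pdk4 3 of 5, and Abca1, the cholesterol exporter, 1 of 5. Srebf1, a classical LXR target, had RXRα folds of 16.6 and 13.6 at 137 bp from its start, beside p300 folds of 5.94 and 5.33. Coactivator and corepressor genes had 17 of 42 (40.5%). Ncor1, a corepressor of unliganded receptors, had 3 of 3 and Crebbp, the paralogue of p300, 2 of 5. Ep300 itself had 3 RXRα regions, at 28776 to 53711 bp from its start, none with p300, and no p300 region.

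Hox genes had the lowest share, 5 of 26 (19.2%, 6.56% to 39.4%), and those of the cytosolic ribosomal proteins were close to it with 3 of 14. Hoxb13 had 1 of 4, Hoxb1 1 of 3 and Hoxc4 1 of 3. Trophoblast and primitive endoderm genes had 20 of 37 (54.1%), streak and mesoderm genes 13 of 28 (46.4%), neural genes 8 of 20 (40.0%) and adult tissue genes 4 of 8. The ends of this order were alike away from gene starts. Beyond 1 kb, where all genes stood at 46.7%, naive pluripotency genes had 63.0% and BMP and Nodal genes 60.0% (45.9% to 73.0%). Retinoid metabolism genes had 26.3% (9.15% to 51.2%), cytosolic ribosomal protein genes 2 of 8 (25.0%, 3.19% to 65.1%) and Hox genes 20.8%. The intervals of the BMP and Nodal, retinoid metabolism and ribosomal protein genes hold the 46.7%. The lists are small, and no test was made over a list. Each region counted only for its nearest gene, so neighbouring genes divided the regions between them.

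**Figure D4:**
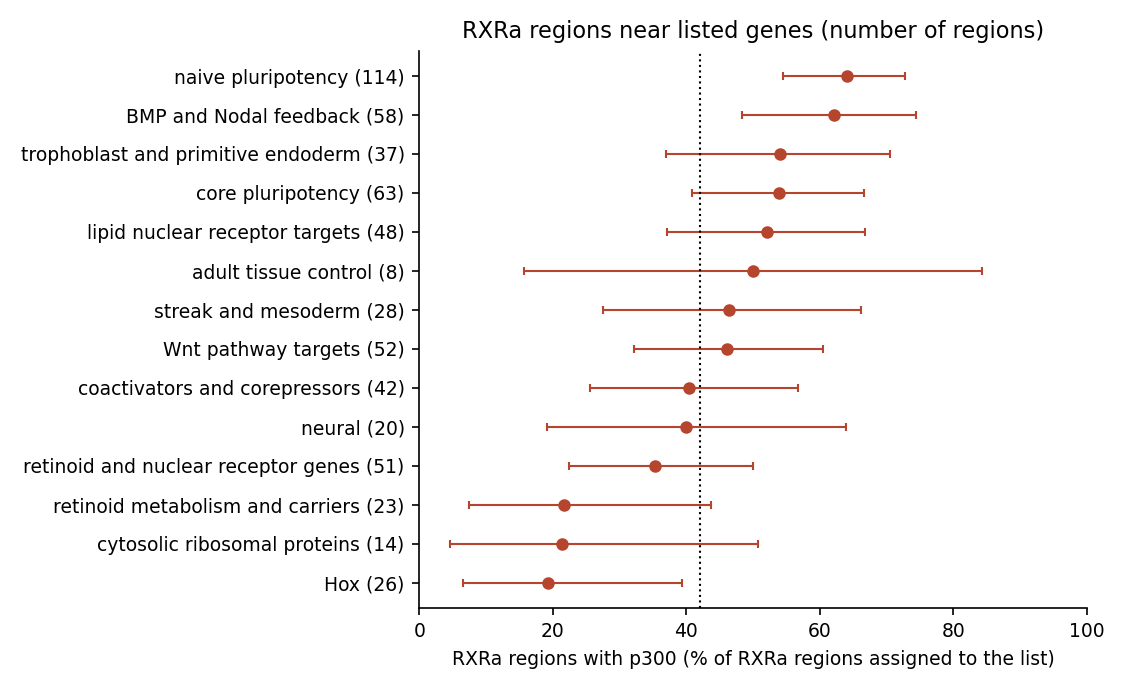
Share of RXRα regions with p300, in percent, among the RXRα regions assigned to the genes of each of 14 lists (number of regions in brackets); bars are exact binomial 95% intervals and the dotted line is the 42.0% of all protein-coding genes. Naive pluripotency genes are highest at 64.0% and Hox genes lowest at 19.2%.

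In 120 h gastruloids, RXRα was found again less often at its mESC sites with p300 than at those without. Of the RXRα regions with p300, 2777 of 10902 (25.5%) overlapped a gastruloid RXRα peak of either library, against 5948 of 13796 (43.1%) without p300. The difference was −17.6 points (−18.8 to −16.5) with an odds ratio of 0.451 and an adjusted p of 2.27e-185 in Fisher's exact test on regions. The 4 pairs of single mESC libraries gave −13.2 to −6.32 points. The position of the regions moved with the class: within 1 kb of a gene start the shares were 75.2% with p300 against 83.7% without, and beyond 1 kb 20.0% against 29.8%. Gastruloid RXRα library 2 had only 3111 peaks kept, beside 29867 in library 1; with library 2 alone the difference was −2.48 points (5.17% against 7.65%), and at gene starts that library gave 18.3% with p300 against 17.1% without. Within each of the 10 fold bins the share with p300 was lower, by 11.9 to 32.1 points, with 33.6% against 65.7% in the strongest bin.

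p300, in contrast, was found again in gastruloids more often at its mESC sites with RXRα. Of the p300 regions with RXRα, 6786 of 10919 (62.1%) overlapped a gastruloid p300 region, against 6793 of 20095 (33.8%) without RXRα. The difference was 28.3 points (27.2 to 29.5), the odds ratio 3.21, and the p of Fisher's exact test on regions was too small to be stored as a number. The library pairs gave 29.2 to 30.5 points. In each of the 10 bins by p300 fold it was higher with RXRα, by 14.1 to 30.2 points, with 90.4% against 71.1% in the strongest bin. Of the 2 gastruloid p300 libraries taken singly, 65.6% and 69.0% of regions with RXRα had a peak, against 37.8% and 41.8% without. The 62.1% and 33.8% ask for a region of both gastruloid libraries, while the RXRα shares above took a peak of either. With a peak of either, p300 gave 72.8% with RXRα against 46.15% without. With a region of both, RXRα gave only 4.96% with p300 against 7.495% without.

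**Figure D5:**
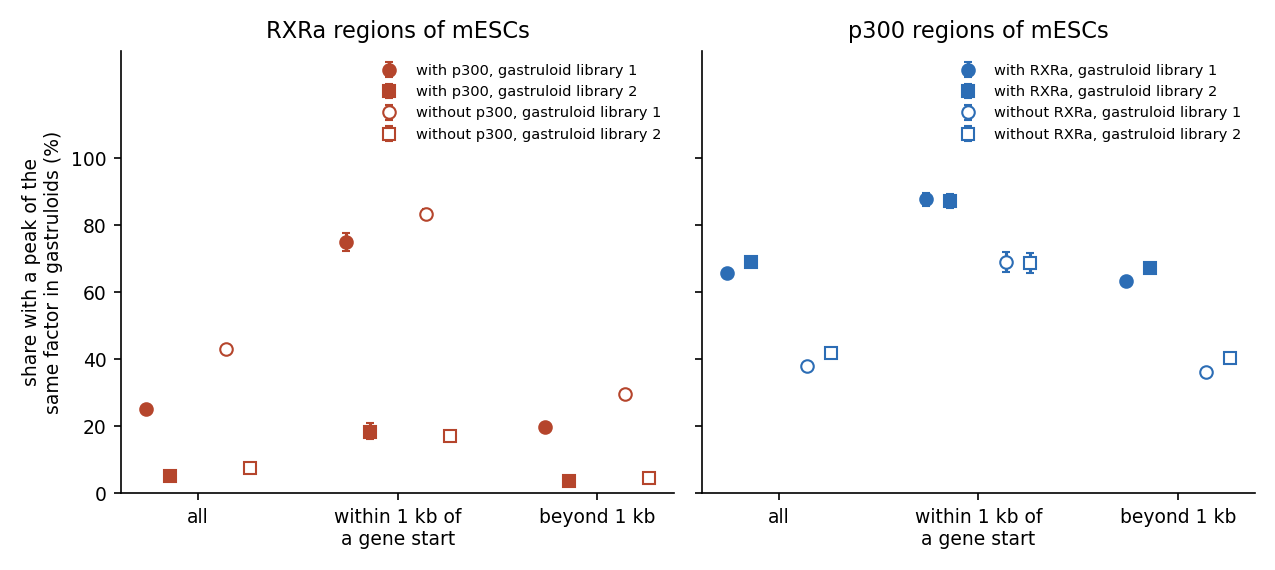
Share of mESC regions with a peak of the same protein in each gastruloid library, in percent, for regions with (filled) and without (open) the other protein in mESCs; circles are library 1, squares library 2, and bars exact binomial 95% intervals. RXRα regions with p300 lie below those without in library 1 (25.3% against 42.9%), and p300 regions with RXRα lie above those without in both libraries.

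p300 occupied many of the RXRα promoters in gastruloids that lacked it in mESCs. Of the 10991 RXRα regions with no p300 peak in mESCs, 3062 (27.9%) overlapped a gastruloid p300 region. Within 1 kb of a gene start this was 1875 of 2469 (75.9%), and beyond 1 kb 1187 of 8522 (13.9%). For RXRα regions with p300 in mESCs it was 86.1% within 1 kb and 59.6% beyond, so the classes were much closer at gene starts than elsewhere. The gastruloid p300 lists were longer, with 63117 and 75346 peaks kept, and the part of list length in these shares was not tested. In the reverse direction, of the 12924 p300 regions with no RXRα peak in mESCs, 554 (4.29%) had a peak in gastruloid RXRα library 1 and 14 (0.108%) in library 2. Of the p300 regions with RXRα in mESCs, 24.4% and 4.79% had one. These RXRα lists were short, with 29867 and 3111 peaks kept, and the part of their length was not tested either.

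RXRα regions without a p300 region in mESCs, whether or not 1 p300 library had a peak there, held p300 in gastruloids at several retinoid genes. Of the 18 RXRα regions without p300 at the retinoid enzyme and carrier genes, 10 (55.6%) overlapped a p300 region in gastruloids, beside 33.7% of the 12634 over all genes, and 10 overlapped a gastruloid RXRα peak, beside 43.9% over all genes. Both Cyp26a1 regions, the 2 strongest of Dhrs3 and the Stra6 region held p300 in both gastruloid libraries and RXRα in at least 1. The nuclear receptor genes had 12 of 33 (36.4%) with gastruloid p300, near the 33.7% over all genes, and 22 of 33 with gastruloid RXRα. Among these, the Rarb promoter held both proteins in all 4 gastruloid libraries. Hox genes had 9 of 21 (42.9%) with gastruloid p300 and 16 of 21 with gastruloid RXRα; those near Hoxa2, Hoxa7, Hoxb1, Hoxc4 and Hoxc10 were among them and were named after their values were seen. Such shares were not particular to retinoid and Hox genes: cytosolic ribosomal protein genes had 6 of 11 (54.5%) with gastruloid p300 and 8 of 11 with gastruloid RXRα. Naive pluripotency genes had 4 of 41 (9.76%) with gastruloid p300 and BMP and Nodal genes 2 of 22 (9.09%). The Pou5f1 promoter region had neither protein in gastruloids.

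Sites of 2 other factors profiled in gastruloids were spread unevenly over the classes as well. Sp5, a zinc-finger factor of the Wnt pathway, had a gastruloid peak of either library at 15.5% of RXRα regions with p300 against 25.3% without. For Zeb2, a repressor of epithelial genes, the shares were 28.1% against 34.0%. At p300 regions the order was the other way, 15.0% with RXRα against 5.55% without for Sp5, and 27.8% against 11.8% for Zeb2. Gene-start shares of the classes ran in the same orders: 9.85% against 24.7% for RXRα regions, and 9.73% against 4.79% for p300 regions. The Sp5 and Zeb2 shares were not split by position, and its part in them was not tested.

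The receptor hexamer was found at overlapping frequencies in RXRα promoters with and without p300, above those of all promoters, and its paired forms were too few to tell the classes apart. Of the 21262 promoter windows, 243 held the summit of an RXRα region with p300, 801 that of one without, and 269 that of a p300 region without RXRα. AGGTCA on either strand was in 28.4% (22.8% to 34.5%) of windows with p300 and 25.2% (22.2% to 28.4%) of those without, beside 13.8% for p300 without RXRα and 14.7% of all windows. Direct repeats of the 4 spellings with 1 base between them were in 0 of 243 windows with p300, which allows a share of up to 1.23% by a limit of 3 counts (1.51% by the exact two-sided interval), and in 14 of 801 (1.75%, 0.959% to 2.92%) without, beside 0.183% of all windows. With 2 bases they were in 4 of 243 (1.65%, 0.4503% to 4.16%) and 3 of 801 (0.375%), beside 0.0894% of all. With 0 bases they were in 0 of 243 and 7 of 801 (0.874%), beside 0.179%. Spacings of 3, 4 and 5 bases were in 0, 0 and 1 windows with p300 and in 1, 1 and 3 without. The intervals of the classes overlap at each of these spacings. The 4 spellings were added after the data had been seen. An extended single hexamer, TCAAGGTCA, was in 1 of 243 windows with p300 (0.41%) and 8 of 801 without (0.999%), beside 0.334% of all. The marked letters of Prm2 also hold this extended hexamer.

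The windows without p300 and a 1-base repeat included Phactr2, Ccdc71, Dph5 and Rpl34, with RXRα folds of 13 and 10, 12.3 and 10.4, 10.6 and 7.20, and 7.80 and 6.97. Those with p300 and a 2-base repeat were 1810020O05Rik, Casd1 (11.2 and 10.1), Stap2 (8.43 and 8.81) and Tinagl1 (8.31 and 5.79), each with the repeat 4 to 12 bp from the summit. These genes were named after their values were seen. Over all 34 matches the centre of the repeat lay a median of 20.5 bp from the RXRα summit.

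Other promoter elements gave the following shares. GGGTGTGG, a Krüppel-like factor element, was in 9.05% (5.76% to 13.4%) of windows with p300 and 4.00% (2.75% to 5.59%) without, beside 3.63% of all. The Sox element ACAATG was in 8.64% (5.43% to 12.9%) and 4.37% (3.06% to 6.03%), beside 11%, and the octamer ATGCAAAT in 2.06% and 0.375%, beside 1.66%. CCGGAAGT, an Ets element of housekeeping promoters, was in 6.996% (4.13% to 10.96%) and 11.4% (9.25% to 13.8%), beside 5.15%. GGGCGG was in 73.3% and 71.7%, beside 46.2%, and the median window had 62.7% G or C with p300 and 65.3% without, beside 56.3%. CACGTG was in 15.6% and 10.4%, beside 7.84%, and CCAAT in 27.98% and 28.09%, beside 38.2%. In windows of p300 without RXRα, CACGTG was in 18.2%, ACAATG in 13.4% and ATGCAAAT in 3.35%, each above the windows of RXRα with p300. In those windows GGGTGTGG was in 5.95%, CCGGAAGT in 4.09%, GGGCGG in 62.8% and CCAAT in 33.8%. Both strands were searched, the hexamer is part of each of its repeats, and windows of neighbouring starts can overlap, so 243 windows came from 234 regions and 801 from 740. A match is a run of letters, and no match says only that these letters are not in the window.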

How the data were processed

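ChIP-seq peak lists of 14 libraries were used: 2 libraries each of RXRα and p300 in mESCs and in gastruloids, 2 each of Sp5 and Zeb2 in gastruloids, and 2 inputs. The authors deposited a peak list for each library, not for pooled replicates; the submitters' processing notes name fastp 0.20.1, BWA 2.2.1, MACS2 2.2.7 and the build GRCm38.p6, also given as mm10. Their roles, and the control used in peak calling, are not given in the sources used here. Per peak, the deposited values are the fold enrichment at the summit (a ratio to the local background), the −log10 p and −log10 q values, the summit position, and a score equal to 10 times the −log10 q rounded down. They describe and rank peaks within a list. Numbers of fragments at summits were solved from the deposited fold and −log10 p values, except for the peaks with the largest −log10 p values. Sequencing depth was not used.

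Peaks on the 21 main chromosomes were kept unless they overlapped an input peak of either tissue. A region within 1 kb of a gene start is at a gene start; regions were assigned to the nearest of 21883 protein-coding RefSeq genes (GRCm38.p6) within 100 kb. The start was known for 17491 of these genes (79.9%), and either end was used for the others. Classes of regions were compared by Fisher's exact test, two-sided, with Benjamini-Hochberg adjustment over 4 tests. With 2 libraries against 2, an exact permutation test could not go below p = 0.333, so none is given. Intervals of shares are exact binomial (Clopper-Pearson) at 95% and cover counting error only.

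The members and the 14 gene lists were chosen with earlier results of these data known. The genes named are the 5 strongest regions per class, the up to 4 (in 5 lists 6) genes per list with the most regions of either protein, Rxra and Ep300, and up to 5 genes with the most shared or the most unshared RXRα regions, ties apart; 3 genes that this rule names are not reported here. The counting steps were tested on simulated data, and 10 of 10 known values were recovered exactly. The simulated sites lay well apart and the simulated input lists were empty, so merging of crowded peaks and the input filter were not tested. Alternatives were other overlaps, thresholds, list lengths, input filters, classes and gene distances, and each library left out. Python 3.11.15, NumPy 2.4.6, pandas 2.3.3, SciPy 1.17.1 and matplotlib 3.10.9 were used.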

Additional observations from a re-analysis of the deposited data

How the results depend on the processing

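Over 15 alternatives each, the 4 tested differences kept their direction and stayed past the threshold of 0.05. The RXRα gene-start difference ranged from −16.2 to −9.56 points, that of p300 from 2.28 to 7.21, the gastruloid difference of RXRα from −22.3 to −2.48 and that of p300 from 20.9 to 35.8. With summits within 200 bp, the share of RXRα regions with p300 was 38.4%, the share of p300 regions with RXRα 30.6%, the p300 fold ratio 1.49 and the summit distance 35 bp. At a −log10 q of at least 5, the p300 share was 30.9%, the p300 fold ratio 1.46 and the distance 36.5 bp. With lists of equal length, the ratio was 1.39 and the distance 36.1 bp; the ratio was also 1.39 when regions had to overlap by 0.5 of the shorter one, and 1.47 against regions with no peak of RXRα in either library. Leaving out each library gave RXRα shares of 36.1% to 53.2%, p300 shares of 29.7% to 57.4% and p300 fold ratios of 1.37 to 1.44. The causes were not tested. None of the values reversed, and the other shares, ratios and distances stayed within the spread between libraries or library pairs. Of 28 list shares at 20 kb, 2 moved, naive pluripotency (74.5% of RXRα regions) and Wnt targets (71.4% of p300 regions). Gene-start definitions were also varied, as alternatives chosen after seeing the data. No paired analysis was possible because RXRα and p300 were tagged in different lines and the tests compare classes of regions within a list, not libraries.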
